A study of Mus musculus with 36 samples.

Results

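Cholesterol handling in the liver was followed through 29 genes, picked by symbol for their known roles, out of 38283 genes in the count table. All 29 were found and all 29 passed the filter on low counts, so none was left out of a test. They comprised 18 enzymes of cholesterol synthesis and 11 genes that move, store or export cholesterol. Whole livers came from male C57Bl/6J mice aged 16 weeks, either wild-type or carrying the Pik3r1 Y657X allele, a nonsense change that truncates the p85α regulatory subunit of PI3 kinase and that the study describes as heterozygous. Each genotype was sampled in 3 states, which were ad libitum chow (fed), an overnight fast of 16 h (fasted), and that fast followed by 6 h with chow returned (refed). There were 6 mice in each of the 6 groups and 36 libraries of total RNA in all, 1 per mouse.

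Library totals ran from 8839488 to 19542775 counts with a median of 13596666. Median Pik3r1 levels were 132.1 CPM (counts per gene scaled to a common library size, with TMM correction for composition) in fed wild-type and 132.9 in fed Y657X livers, 94.3 and 99.1 in the fasted groups, and 124 and 152 in the refed groups, and none of the 3 genotype differences passed the test (adjusted p = 0.886, 0.807 and 0.423, edgeR quasi-likelihood test). A gene count does not read the altered base, so it does not check the genotype. All 7 hepatocyte markers examined were above 0 in every library and summed to between 46670 and 89500 CPM. Mice are named here by genotype and number as in the labels, with MT for Y657X. Their numbers fell into separate runs. Each fasted and refed group held 3 mice of a lower run, from MT_806 to WT_828, and 3 of a higher run, from WT_896 to MT_923, whereas all fed mice, from WT_847 to MT_869, lay between those runs. Feeding state against the fed group therefore cannot be told apart from the run of mouse numbers. Fasted and refed mice were interleaved in the lower run. In the higher run refed mice were numbered from WT_896 to WT_901 and fasted mice from WT_918 to MT_923. Refed against fasted cannot be told apart from mouse number there. The study describes livers taken before the overnight fast, after it, or once mice had been refed. Feeding state therefore cannot be told apart from the hour of collection either. Refed livers of the lower and higher run stood apart in cholesterol synthesis. Fed Y657X mice MT_866, MT_868 and MT_869 stood apart from the other fed mice. Some of the results that rest on these mice are given with and without them.

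Hepatocytes build cholesterol from acetyl-CoA through mevalonate, isoprenoid pyrophosphates, squalene and lanosterol. When sterols in the endoplasmic reticulum are low, the transcription factor SREBP-2 is released from the membrane and raises the genes of this route, and when sterols accumulate, the oxysterol-sensing LXR receptors raise export genes such as Abca1, Abcg1, Abcg5 and Abcg8. In liver, both synthesis and the lipogenic factor SREBP-1c are known to fall with fasting and to recover with food and insulin.

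Sequences just before the transcription start are shown for synthesis members that moved together, for Abca1, which fell on fasting and was not called between refed and fasted mice, and for the Abcg5–Abcg8 pair. They are taken from RefSeq promoters on mouse build GRCm38.p6, written 5′ to 3′ along the strand of the gene, and end at the base before the start. Capitals mark CCAAT (or ATTGG, the same box read on the other strand) and TCACNCCAC, a form of the sterol regulatory element to which SREBP binds. Hmgcs1 (chr13:119690101-119690350, plus strand) makes HMG-CoA, Mvk (chr5:114444019-114444268, plus) phosphorylates mevalonate, Mvd (chr8:122443423-122443672, minus) forms isopentenyl pyrophosphate, and Nsdhl (chrX:72918271-72918520, plus) removes a carboxyl group from sterol intermediates. Abca1 (chr4:53159896-53160145, minus) loads cholesterol onto apolipoprotein A-I. Abcg5 and Abcg8, the partners of the transporter that exports sterols into bile, are transcribed away from each other, and the 109 bases between their starts (chr17:84683012-84683120) are given along the strand of Abcg8.
Hmgcs1: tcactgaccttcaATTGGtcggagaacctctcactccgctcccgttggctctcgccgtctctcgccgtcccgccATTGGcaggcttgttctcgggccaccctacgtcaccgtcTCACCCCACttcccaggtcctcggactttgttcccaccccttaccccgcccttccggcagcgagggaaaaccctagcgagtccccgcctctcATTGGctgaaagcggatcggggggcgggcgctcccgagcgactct
Mvk: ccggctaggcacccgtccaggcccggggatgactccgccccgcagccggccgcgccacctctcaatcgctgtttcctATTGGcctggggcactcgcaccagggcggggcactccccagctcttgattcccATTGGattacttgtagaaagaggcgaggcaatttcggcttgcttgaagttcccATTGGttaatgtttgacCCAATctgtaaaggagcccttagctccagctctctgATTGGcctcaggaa
Mvd: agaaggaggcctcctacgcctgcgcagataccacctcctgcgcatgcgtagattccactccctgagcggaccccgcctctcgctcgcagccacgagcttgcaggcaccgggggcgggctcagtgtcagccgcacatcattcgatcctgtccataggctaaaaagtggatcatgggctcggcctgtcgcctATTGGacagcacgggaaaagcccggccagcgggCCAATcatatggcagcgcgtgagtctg
Nsdhl: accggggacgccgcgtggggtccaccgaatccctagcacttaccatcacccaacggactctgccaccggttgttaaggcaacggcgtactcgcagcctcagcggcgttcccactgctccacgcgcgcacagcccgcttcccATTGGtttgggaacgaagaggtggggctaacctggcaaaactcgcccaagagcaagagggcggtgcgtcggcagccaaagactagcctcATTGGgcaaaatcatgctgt
Abca1: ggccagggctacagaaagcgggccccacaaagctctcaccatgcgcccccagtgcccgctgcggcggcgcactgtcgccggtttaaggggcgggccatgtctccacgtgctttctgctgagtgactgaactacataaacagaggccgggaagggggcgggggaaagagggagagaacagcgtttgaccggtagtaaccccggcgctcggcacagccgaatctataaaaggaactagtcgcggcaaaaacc
Abcg5–Abcg8: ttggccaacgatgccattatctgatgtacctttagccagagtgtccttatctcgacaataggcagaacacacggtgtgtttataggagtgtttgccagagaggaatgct

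Of the 29 members, 21 were searched in the RefSeq promoter table. Each window held 250 bases before and 50 after a start, and a gene with several starts can have several windows. CCAAT on either strand was present in at least 1 window of 14 of the 15 synthesis genes and of 4 of the 6 others, against 41.1% of 27025 genes. Mvk held 5 such boxes, the first letters of which lay at −173, −120, −67, −50 and −14 counted from the start as base 1. TCACNCCAC occurred in 1 of the 21 genes, Hmgcs1 at −137, against 1.44% of all genes. The GC box GGGCGG was present in 13 of the synthesis genes and 3 of the others, against 38.2% of genes, and the E-box CACGTG in 3 and 1, against 8.09%. Both strands were searched for each motif. These matches describe letters in a short window. No statement on binding follows from them. Scarb1, Abcg1, Fdft1, Fdps, Soat2 and Sqle had no entry and were not searched. Npc1 and Stard4 were not searched either, as chromosome 18 was left out for members. The shares over all genes were not limited in this way.

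In fed wild-type liver the members spanned a wide range of levels, compared here as median CPM per kilobase of exon. Lcat, the enzyme that esterifies cholesterol on plasma HDL, stood highest at 187. Lrp1, an endocytic receptor for lipoprotein remnants, followed at 98.8, then Hmgcs1 at 95.95. Sc5d, a late desaturase, stood at 94.1 and Ebp, a late isomerase, at 80.8. Idi1, which isomerizes isopentenyl pyrophosphate, and Abca1 came next at 54.97 and 54.04. At the other end lay Lss at 7.56, Ggps1, which diverts isoprenoids to geranylgeranyl pyrophosphate, at 1.44, and Abcg1, a transporter that exports cholesterol to HDL, at 1.33. Of the 28 neighbouring pairs in this order, 24 had overlapping ranges over the 6 mice. The 4 clear steps were those from Lcat to Lrp1, from Ebp to Idi1, from Fdps to Stard4 and from Lss to Ggps1.

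After 16 h of fasting most of the synthesis route fell, in both genotypes. Among wild-type mice 14 of the 18 synthesis members were lower than in fed mice and none was higher, with a median log2 fold change of −1.69 against 0.01 over all genes tested. Among Y657X mice 15 were lower and 1 was higher (median −1.93). Of all 13945 genes tested, 17.5% were called lower (adjusted p under 0.05, edgeR quasi-likelihood test) and 14.5% higher in wild-type mice, and 17.7% and 15.2% in Y657X mice. All 6 fasted wild-type livers lay below all 6 fed ones for 15 synthesis members, a pattern that 9.89% of all genes showed. The same count in Y657X mice was 15, against 6.60%. Since bulk RNA was sequenced, less RNA per cell and fewer cells of a type cannot be told apart.

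Fdps, which builds farnesyl pyrophosphate, showed the steepest wild-type fall. Its CPM ran from 144 to 232 in fed wild-type livers (median 175) and from 13.03 to 19.45 (17.1) in fasted ones, a log2 fold change of −3.43 (SE 0.46, adjusted p = 5.84e-07). In Y657X mice it ran from 81.7 to 223 (159) fed and from 7.78 to 18.97 (13.9) fasted, a change of −3.46 (SE 0.46, adjusted p = 6.6e-07). The fed and fasted values did not meet in either genotype. Mvd went from 16.5 to 34.98 CPM fed (median 22.1) to 1.75 to 4.08 fasted (2.98) in wild-type livers, a log2 fold change of −2.97 (SE 0.50, adjusted p = 2.22e-05). Y657X livers went from 9.84 to 34.1 (22.4) to 0.428 to 4.11 (1.94), a change of −3.48 (SE 0.53, adjusted p = 6.35e-06). The fasted values were clear of the fed ones in both genotypes. Sqle, the epoxidase that commits squalene to sterols, fell by 3.15 on the log2 scale in wild-type (SE 0.48) and by 2.95 in Y657X mice (SE 0.50), with adjusted p of 6.7e-06 and 2.76e-05.

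Hmgcs1, the entry enzyme, fell less. Its levels were 341 to 494 CPM (median 441) in fed and 151 to 234 (197) in fasted wild-type livers. In Y657X livers they were 230 to 613 (407) fed and 92.4 to 154 (137) fasted. The fed and fasted ranges were separate in each genotype. The wild-type change of −1.11 (SE 0.44) just missed the threshold (adjusted p = 0.0516) while the Y657X change of −1.64 (SE 0.45) passed it (adjusted p = 0.00493). The difference between those changes was −0.53 (SE 0.61, adjusted p = 0.685). In a fit of only the fed and fasted wild-type groups Hmgcs1 was called, as 1 of 16 synthesis members called lower, where 36.2% of all genes were called. Acat2, the thiolase that opens the route, the kinases Mvk and Pmvk, and the isomerase Idi1 fell by 0.99 to 2.46 on the log2 scale in wild-type and by 1.36 to 2.45 in Y657X mice. Among enzymes after squalene, Dhcr7, which makes the final reduction to cholesterol in one branch, changed by −2.35 and −2.21, Nsdhl by −2.40 and −2.69, the cyclase Lss by −2.03 and −1.93, and the lanosterol demethylase Cyp51 by −1.88 and −1.99. Sc5d fell by 1.05 in wild-type and 1.75 in Y657X mice. Ebp was the smallest of the called falls, by 0.22 and 0.35.

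Not every enzyme of the route was called lower. Hsd17b7, a sterol ketone reductase, had nearly the same median in fed and fasted wild-type livers, 72.9 and 73.0 CPM, with log2 fold changes of −0.02 (SE 0.29) and −0.08 (SE 0.30) in the 2 genotypes. Tm7sf2, a sterol reductase, gave −0.36 and −0.38 (SE 0.18 each, adjusted p = 0.145 and 0.113), and its exons overlap Vps51 on the same strand, with counts shared between them. In the fit of only the fed and fasted wild-type groups Tm7sf2 was called lower. Ggps1 stands on a side branch that feeds protein prenylation rather than sterols. It was 5.20 to 9.07 CPM (median 6.82) in fed and 6.63 to 8.996 (6.999) in fasted wild-type livers, and 5.39 to 8.78 (7.62) in fed and 7.56 to 11.4 (10.1) in fasted Y657X livers. Its log2 fold change was 0.07 (SE 0.12, adjusted p = 0.695) in wild-type and 0.45 (SE 0.12, adjusted p = 0.00378) in Y657X mice, where it was the 1 synthesis member that rose. Without fed mice MT_866, MT_868 and MT_869 no synthesis member was called higher, so the Ggps1 call was lost.

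Transport, storage and export genes did not fall as a group, with 2 of 11 higher and 3 lower in wild-type mice (median log2 fold change 0.15) and 1 higher and 3 lower in Y657X mice (median −0.38). Without fed mice MT_866, MT_868 and MT_869, 2 were higher and 3 lower in Y657X mice (median 0.10), where 30.3% of all genes were called. Stard4, a soluble sterol carrier, moved with the enzymes, from 113 to 189 CPM (median 160) to 36.3 to 67.1 (47.9) in wild-type livers and from 102 to 197 (130) to 20.8 to 51.8 (32.9) in Y657X livers. Its changes were −1.59 (SE 0.23) in wild-type and −2.0 (SE 0.23) in Y657X mice, with adjusted p of 1.89e-06 and 5.23e-08. Lcat went the other way, by 0.59 (SE 0.07) in each genotype, with every fasted liver above every fed one, as was so for 7.87% of all genes in wild-type and 5.05% in Y657X mice. Npc1, which lets cholesterol out of lysosomes, rose by 0.38 in wild-type mice (SE 0.10, adjusted p = 0.00402), and its Y657X value of 0.24 (SE 0.10) did not pass (adjusted p = 0.0674).

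Lrp1 and Abca1 were the 2 abundant genes outside synthesis that fell. Lrp1 was 1517 to 1987 CPM (median 1751) in fed wild-type livers and 873 to 1260 (951) in fasted ones, a change of −0.81 (SE 0.16, adjusted p = 0.000102). In Y657X mice the ranges of 735 to 1862 (1078) and 813 to 996 (912) overlapped, with a change of −0.42 (SE 0.16, adjusted p = 0.035). Abca1 was 473 to 653 (560) in fed and 248 to 288 (269) in fasted wild-type livers, a change of −1.04 (SE 0.12, adjusted p = 2.57e-08). Its Y657X levels were 261 to 572 (367) and 220 to 311 (241), a change of −0.70 (SE 0.12, adjusted p = 3.28e-05). Abcg5 and Abcg8 had positive changes in wild-type mice, 0.44 and 0.47 (SE 0.28 and 0.26), and negative ones in Y657X mice, −0.53 and −0.49 (SE 0.28 and 0.26), none of which passed. Fed mice MT_866, MT_868 and MT_869 were picked after their high Abcg5 values had been seen, so leaving them out gives no test. Without them the Y657X value of Abcg5 was 0.68. The total was then 20 members as before, where 30.3% of all genes were called, but the members differed. Ggps1 lost its call, and 2 members outside synthesis were called higher.

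**Figure D1:**
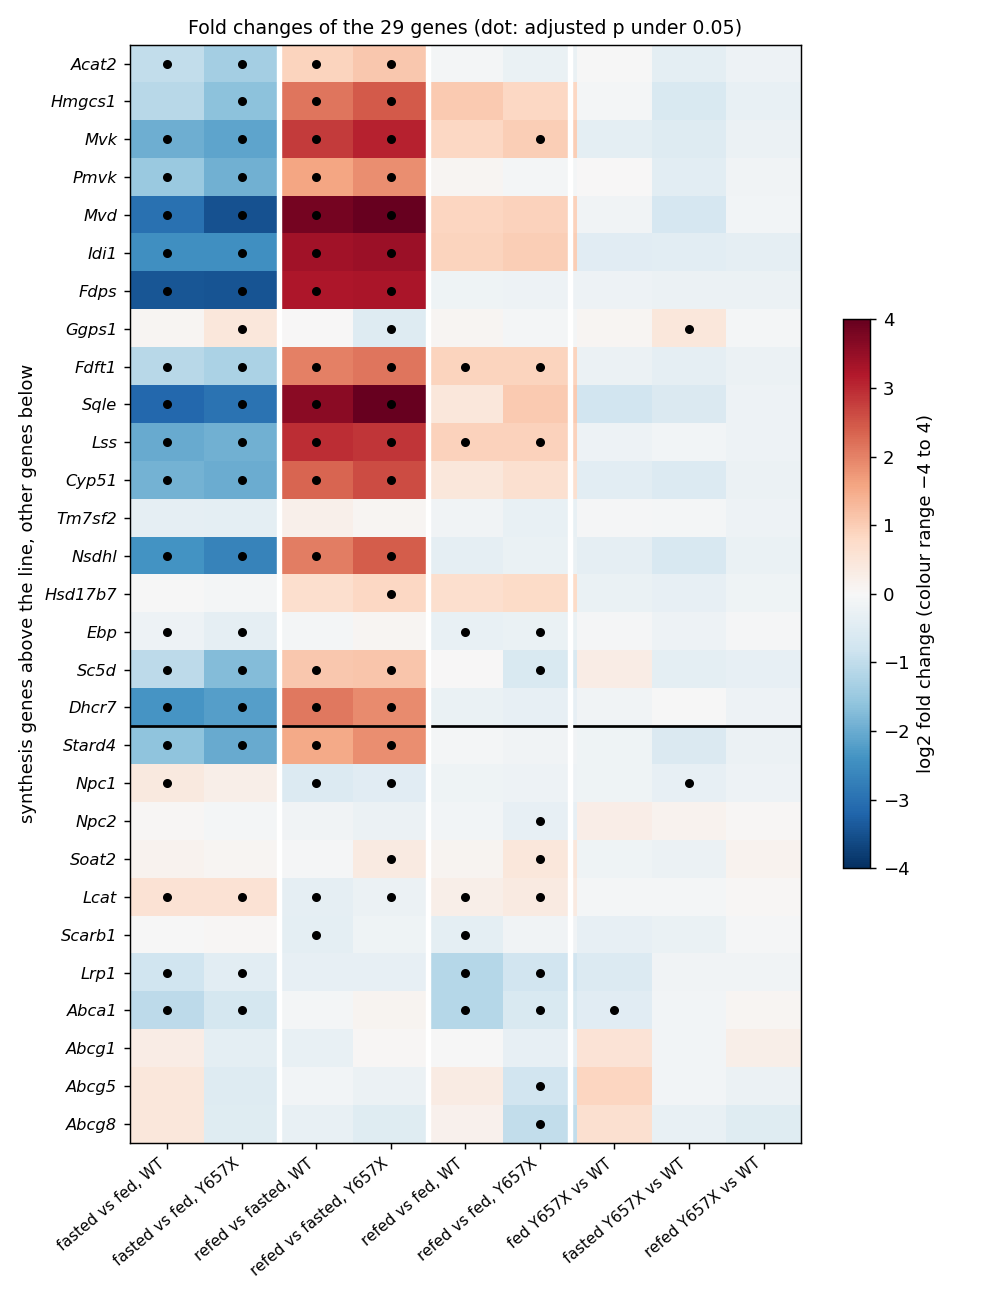
Log2 fold changes of the 29 members (one per line, synthesis members above the black line) in 9 comparisons (one per column), coloured from blue (negative) to red (positive) with the colours saturating at −4 and 4, and a dot where the adjusted p was under 0.05. Most synthesis members are blue with a dot after fasting (14 of 18 in wild-type mice) and red with a dot after refeeding against fasted mice (14 of 18), while the columns that compare genotypes hold 1, 2 and 0 dots.

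After 6 h of refeeding most of the enzymes stood above their fasted level. Against the fasted mice already used above, 14 of the 18 synthesis members were higher and none lower in wild-type livers (median log2 fold change 2.07), and 15 were higher and 1 lower in Y657X livers (median 2.29). Higher calls made up 16.5% of all genes tested in wild-type and 17.1% in Y657X mice, and lower calls 13.7% and 14.2%. Every refed liver lay above every fasted one for 14 synthesis members in each genotype, against 9.24% and 6.98% of all genes. In total 18 members were called in wild-type and 20 in Y657X mice, of which 17 were called in both.

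Mvd changed most. It was 16.0 to 97.5 CPM (median 34.2) in refed wild-type livers and 12.3 to 79.7 (26.6) in refed Y657X livers, and its log2 fold changes were 3.83 (SE 0.50, adjusted p = 5.61e-07) and 4.39 (SE 0.53, adjusted p = 1.57e-07). Hmgcs1 ranged from 296 to 2148 CPM (669) in wild-type and from 160 to 1792 (391) in Y657X livers, with changes of 2.15 (SE 0.45, adjusted p = 0.000468) and 2.45 (SE 0.46, adjusted p = 0.000111). No refed value of these genes reached down to a fasted one. The changes of Sqle were 3.62 and 3.99, of Idi1 3.35 and 3.42, of Fdps 3.24 and 3.26, of Lss 2.95 and 2.86, and of Mvk 2.79 and 3.08. Hsd17b7, which fasting had left in place, rose by 0.83 in Y657X mice (SE 0.29, adjusted p = 0.0308), and its wild-type value was 0.69 (SE 0.29, adjusted p = 0.0757). Ggps1 fell from its fasted level by 0.53 in Y657X mice (SE 0.12, adjusted p = 0.000859), and its wild-type medians were 7.0 CPM fasted and 7.42 refed.

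Outside synthesis, Stard4 rose by 1.51 and 1.85, and the other called changes were small. Npc1 fell by 0.55 and 0.44 (SE 0.10 each) and Lcat by 0.36 and 0.23 (SE 0.07 each). Scarb1, the receptor for selective uptake from HDL, fell by 0.39 in wild-type mice (SE 0.10, adjusted p = 0.00321), and its Y657X value was −0.18 (adjusted p = 0.173). Soat2, which esterifies cholesterol for storage and lipoprotein assembly, rose by 0.36 in Y657X mice (SE 0.12, adjusted p = 0.0274), with a wild-type value of −0.03. None of the 4 export genes was called between refed and fasted mice in either genotype (lowest adjusted p = 0.219 in wild-type and 0.168 in Y657X mice), and 0 of them had an unadjusted p under 0.05. With runs of mouse numbers as a covariate, 5 of the 11 members outside synthesis were called lower in Y657X mice, Abcg8 among them. In that fit 32.8% of all genes were called.

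**Figure D2:**
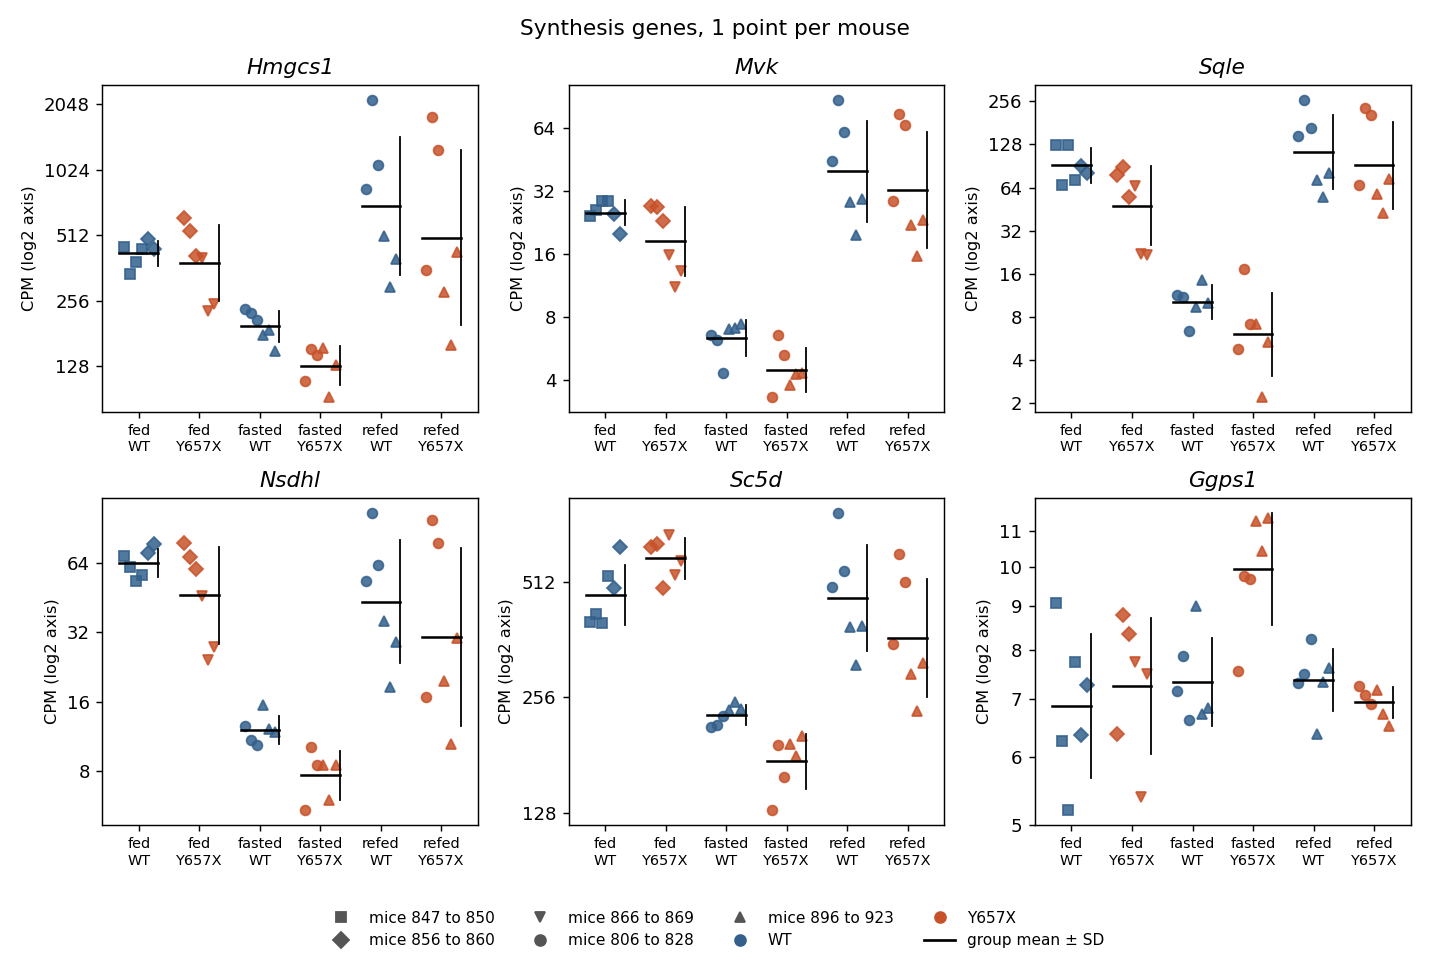
CPM of individual mice on a log2 axis for selected synthesis members in the 6 groups, with symbols for runs of mouse numbers, bars for the group mean and vertical lines for the SD, both computed on the log2 scale. Refed livers spread widely, Hmgcs1 from 296 to 2148 CPM in wild-type mice.

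The synthesis genes varied widely among refed mice. The median coefficient of variation of the 18 synthesis members was 57.5% in refed wild-type and 64.9% in refed Y657X livers, against 12.8% in fed and 14.7% in fasted wild-type livers and 34.2% and 23.4% in fed and fasted Y657X livers. The 11 other members had 16.2% and 15.3% in the refed groups, and the median over all genes tested was 15.1% and 17.3%. The split followed mouse numbers. In the lower run Hmgcs1 was 831, 2148 and 1078 CPM in refed mice WT_815, WT_816 and WT_828 and 355, 1792 and 1266 in refed mice MT_810, MT_814 and MT_817. The higher run gave 507, 296 and 396 in WT_896, WT_900 and WT_901 and 281, 160 and 427 in MT_897, MT_898 and MT_899. One mouse of the lower run, MT_810, lay within the values of the higher run.

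With genotypes balanced across the runs, the lower-numbered refed livers were compared with the higher-numbered ones, a comparison added after these values had been seen. Since the split was noticed in the same values, the calls and p values below describe it and do not stand as a test. The comparison called 13 of the 29 members, all of them synthesis enzymes and all higher in the lower run. Of all genes tested 0.186% were called, 26 in number, and 0.172%, or 24, were called higher. None of the 11 other members was called (lowest adjusted p = 0.454, with 6 at an unadjusted p under 0.05). Log2 differences were 1.87 for Hmgcs1 (SE 0.29, adjusted p = 0.00225), 1.73 for Fdps (SE 0.26, adjusted p = 0.00105), 1.72 for Idi1, 1.60 for Mvd, 1.54 for Nsdhl, 1.42 for Lss and 1.34 for Pmvk. Mvk had the lowest p, with a 2.64-fold difference (SE 0.18 on the log2 scale, adjusted p = 0.000234). Dhcr7, Hsd17b7, Fdft1, Acat2 and Sc5d differed by 0.76 to 1.31. Sqle and Cyp51 had differences of 1.5 and 1.25 that did not pass (adjusted p = 0.0528 and 0.101). In wild-type mice 17 synthesis members had no overlap between runs, against 7.45% of all genes in that direction, and in Y657X mice 6 had none, against 4.60%.

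Fasted livers of the lower and higher run did not differ in this way. Their higher run, WT_918 to MT_923, held other numbers than that of the refed mice, WT_896 to WT_901. One member, Npc1, was called between runs among fasted mice (−0.32, SE 0.07, adjusted p = 0.031), where 0.265% of all genes were, and the synthesis members lay between −0.29 and 0.36. Library totals were 9544993 to 13526586 in the lower and 14754440 to 19542775 in the higher run of refed wild-type mice, so depth moved with the run there. In refed Y657X mice the totals overlapped, at 12924904 to 15055577 and 12780228 to 14308576. Summed macrophage markers overlapped between the runs in both genotypes (235 to 497 against 229 to 269 CPM in wild-type and 290 to 391 against 234 to 657.1 in Y657X mice). So did the sums of hepatocyte, endothelial, stellate, cholangiocyte and red cell markers. Markers listed as lymphocyte (Ptprc, Cd3e and Cd79a) did not overlap in wild-type mice, at 14.57 to 32.35 CPM in the lower and 12.08 to 14.36 in the higher run. They overlapped in Y657X mice (17.43 to 25.8 against 16.92 to 40.43). Nearly all of this sum was Ptprc, at a refed wild-type median of 13.92 CPM against 0.102 for Cd3e and 0.361 for Cd79a. What a run of mouse numbers stands for is not given in the sources used here. The part of depth, or of cells that express Ptprc, in the difference was not tested.

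**Figure D3:**
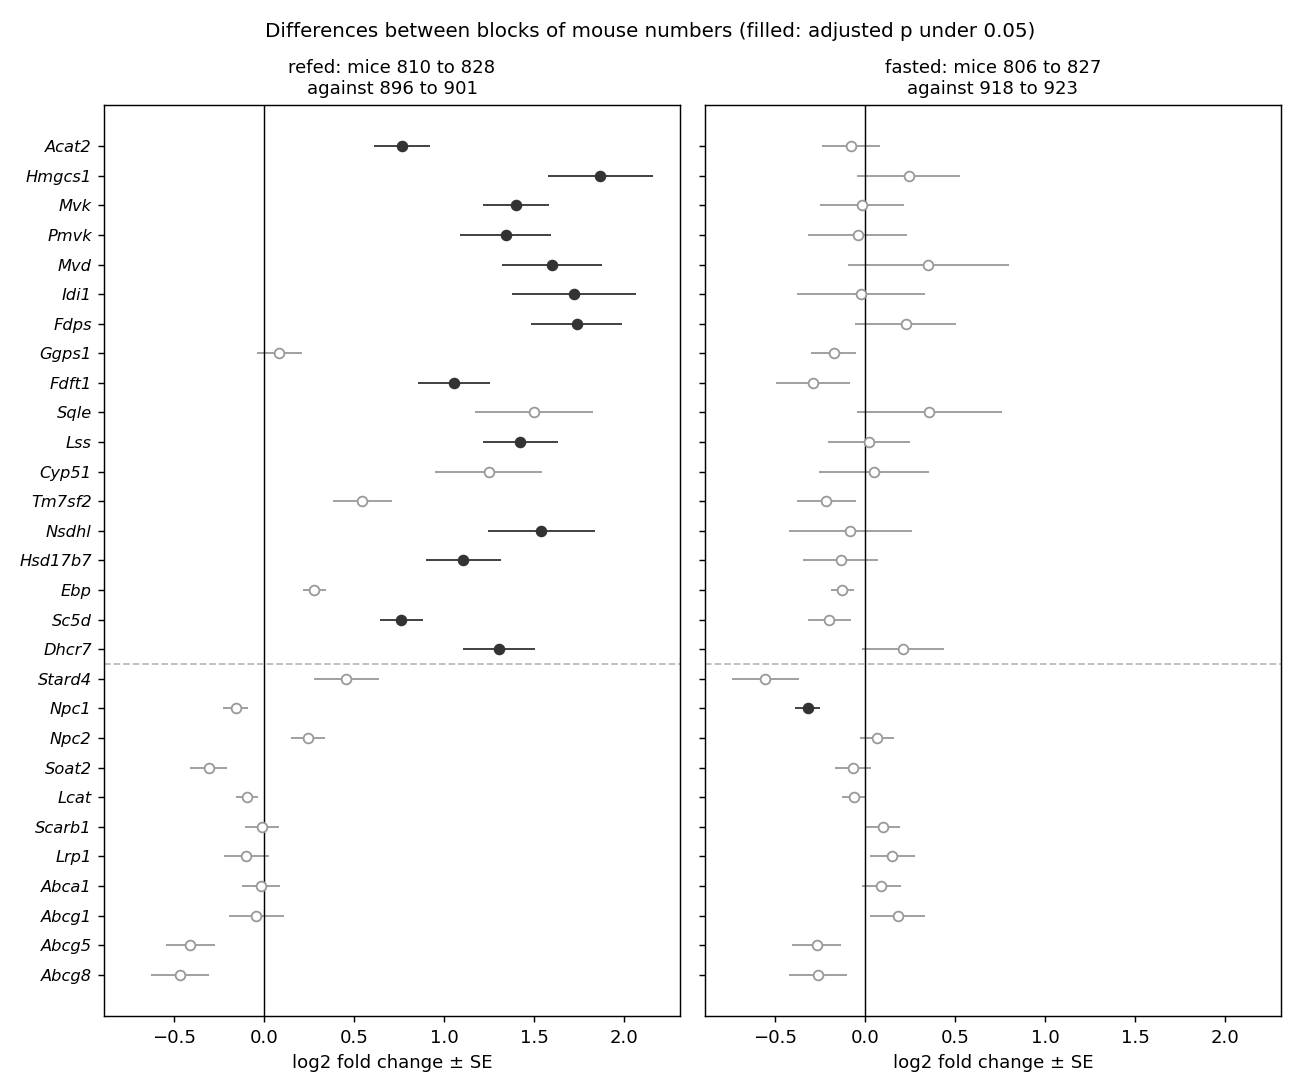
Log2 differences with standard errors for the 29 members between runs of mouse numbers, with the lower against the higher run of refed mice on the left and of fasted mice on the right, filled where the adjusted p was under 0.05. On the left 13 synthesis members are called higher and no other member is, and on the right Npc1 is the 1 member called, at −0.32. The split of refed mice was noticed in these same values, so the calls on the left are no test.

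Whether refed livers exceeded fed ones depended on the run. With all mice, 7 members differed between refed and fed wild-type livers, 3 higher and 4 lower (27.5% of all genes), and 12 in Y657X livers, 5 higher and 7 lower (26.1%). Fdft1, which makes squalene, and Lss, which cyclizes its epoxide to lanosterol, were above the fed level, by 0.90 (SE 0.28, adjusted p = 0.0156) and 0.92 (SE 0.33, adjusted p = 0.0352) in wild-type and by 0.89 and 0.92 in Y657X mice, and Ebp was below it by 0.28 and 0.27 (SE 0.08 each). With the lower run alone, refed wild-type livers exceeded fed ones for 7 synthesis members (Hmgcs1, Mvk, Mvd, Idi1, Fdft1, Lss and Hsd17b7, by 1.11 to 1.66) and fell below for none, where 7.24% of all genes were called higher and 8.63% lower. With the higher run alone, 7 synthesis members were below the fed level (Acat2, Pmvk, Fdps, Nsdhl, Ebp, Sc5d and Dhcr7) and none above, where 9.47% of all genes were called lower and 8.27% higher.

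The 2 sets of 7 enzymes had no gene in common. Hmgcs1 was 1.66 above fed with the lower run (adjusted p = 0.00488) and −0.09 with the higher run (adjusted p = 0.872). Fdps was 0.39 (adjusted p = 0.501) and −1.17 (adjusted p = 0.0104), Nsdhl 0.18 and −1.21, and Dhcr7 0.26 and −1.04. In Y657X mice 9 synthesis members were higher and none lower with the lower run (8.18% and 7.69% of all genes), and 8 were lower and none higher with the higher run (7.53% and 7.74%). Their fed group includes the 3 mice that stood apart. Without those mice, and with both refed runs together, 0 synthesis members were called in either direction, where 23.5% of all genes were called. Both runs were set against the same fed mice.

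Lrp1 and Abca1 did not return to their fed level after refeeding. Refed wild-type livers had 625 to 905 CPM of Lrp1 (median 814.7) and refed Y657X livers 587 to 895 (688), changes of −1.15 (SE 0.16, adjusted p = 1.26e-06) and −0.75 (SE 0.16, adjusted p = 0.000433) against fed mice. Abca1 was 240 to 277 (245) and 230 to 319 (253), changes of −1.13 (SE 0.13, adjusted p = 3.04e-08) and −0.60 (SE 0.12, adjusted p = 0.000378). All 6 refed wild-type livers lay below all 6 fed ones for both genes, as was so in that direction for 7.57% of all genes. Wild-type values were −1.13 and −1.19 for Lrp1 and −1.14 and −1.13 for Abca1 with the lower and higher run. In Y657X mice they were −0.89 and −0.62 for Lrp1, of which the second missed the threshold (adjusted p = 0.0535), and −0.61 and −0.59 for Abca1. Lcat remained above its fed level, by 0.22 (SE 0.07) and 0.36 (SE 0.07).

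**Figure D4:**
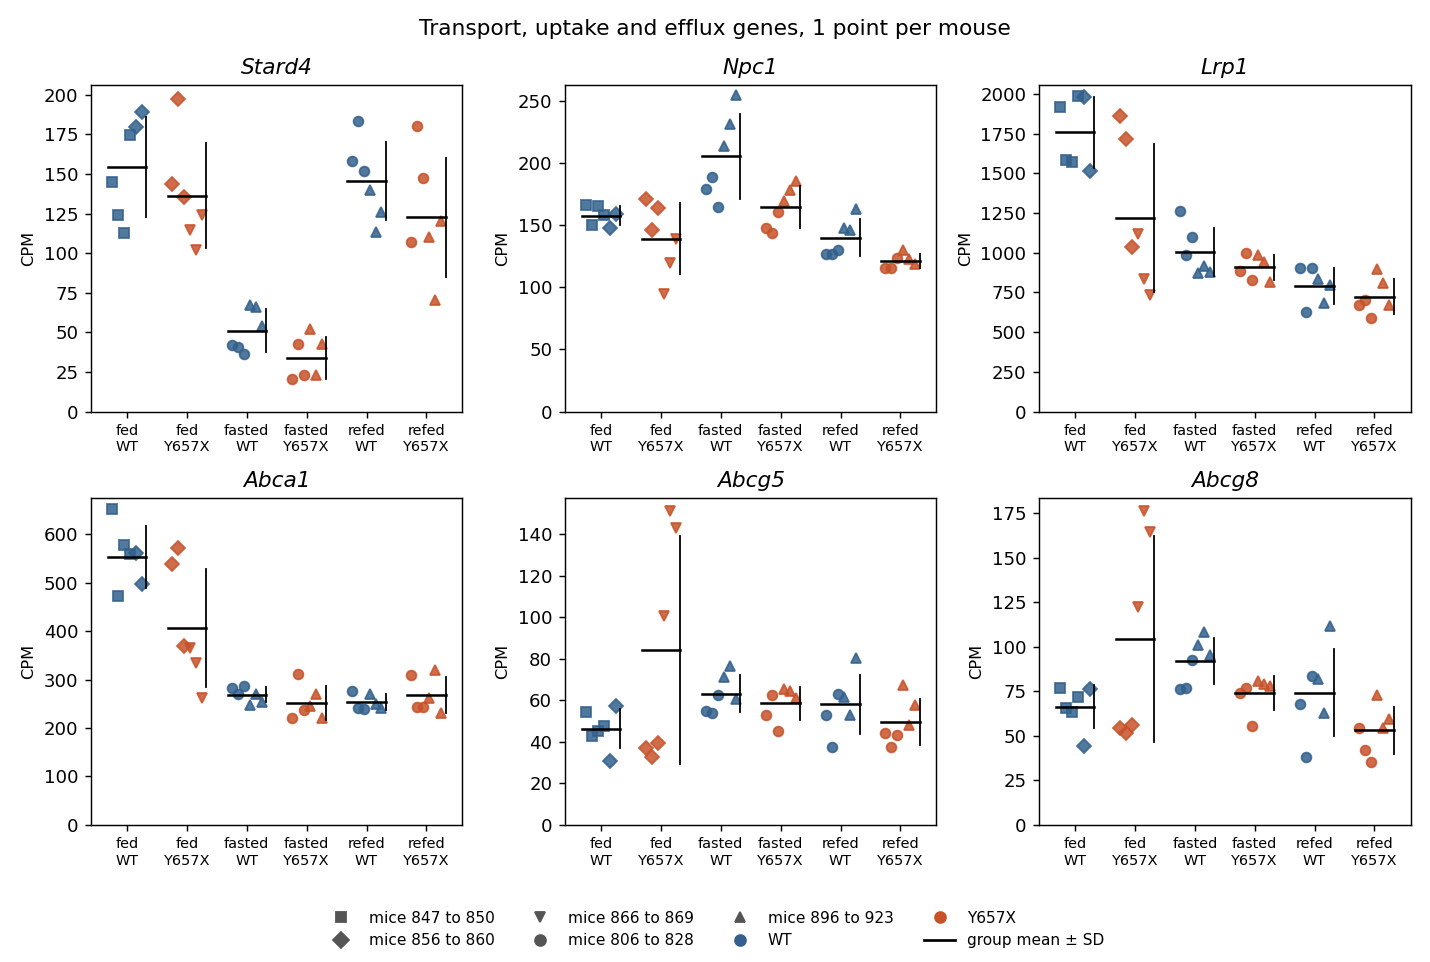
CPM of individual mice on linear axes from 0 for members outside synthesis in the 6 groups, with symbols for runs of mouse numbers, bars for the group mean and vertical lines for the SD. Lrp1 and Abca1 are low in fasted and refed livers alike, and 3 fed Y657X mice have 101 to 151 CPM of Abcg5 while all other fed mice have 57.2 or less.

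In fed mice the genotypes differed in 1 member. Abca1 was lower in Y657X livers by 0.44 (SE 0.12, adjusted p = 0.0451), where 2.37% of all genes were called, and none of the 18 synthesis members was called or had an unadjusted p under 0.05 (median −0.18). The call was lost without the filter on low counts, in a fit of only the fed groups, with library size alone, and on leaving out any single mouse other than WT_848, WT_860, MT_857 or MT_858. Without MT_866, MT_868 and MT_869 together, the Abca1 value was −0.17 and no member was called, 2 having an unadjusted p under 0.05, and none of 14362 genes was called (0.00%).

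Those 3 mice were set beside fed mice MT_857, MT_858 and MT_859 after their values had been seen, so what follows is a description with no test. Abcg5 was 101, 151 and 143 CPM in them against 37.0, 32.9 and 39.6, and 30.9 to 57.2 in fed wild-type mice, a log2 difference of 1.85. Abcg8 was 122, 176 and 165 against 54.6, 51.4 and 56.3, with 44.1 to 76.6 in fed wild-type mice, a difference of 1.51. For both genes every value in these 3 mice lay above every other fed mouse. Such separation was not particular to Abcg5 and Abcg8. Against MT_857, MT_858 and MT_859, 5 of the 29 members were higher and 13 lower without overlap. Between fed genotypes 2.37% of all genes were called with these 3 mice and 0.00% without them. The share of all genes that separated these 3 mice is not given here. The log2 difference from MT_857, MT_858 and MT_859 was 0.84 for Abcg1 and 0.52 for Npc2, the lysosomal partner of Npc1. Abca1, the other export gene, had the opposite sign, at 364, 335 and 261 CPM against 539, 572 and 369, a difference of −0.62. Lrp1 was 1120, 834 and 735 against 1862, 1715 and 1036, a difference of −0.78, and Npc1 had −0.45. Fed wild-type mice had 473 to 653 CPM of Abca1 and 1517 to 1987 of Lrp1, so MT_859 also lay below all of them for both genes. Among synthesis enzymes Hmgcs1 was 401, 230 and 247 CPM against 613, 534 and 412, a difference of −0.83, and Mvk had −0.94. Fed wild-type Hmgcs1 ran from 341 to 494 CPM, a range that held MT_866 and MT_859 and lay below MT_857 and MT_858.

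Sums of cell markers differed in part between these mice and the other fed mice. Summed macrophage markers (7 of 8 listed genes in the table) were 459.6 to 720.7 CPM in them, 208.6 to 459.5 in MT_857, MT_858 and MT_859 and 221 to 310 in fed wild-type mice. The highest of MT_857, MT_858 and MT_859 thus nearly equalled the lowest of these mice and lay above all fed wild-type mice. None of the 7 markers was at 0 in any library. Markers listed as lymphocyte summed to 20.1 to 40.4 against 11.99 to 19.8, with Cd3e at 0 in 7 of the 36 libraries. Nearly all of this sum was Ptprc, at a fed Y657X median of 19.2 CPM against 0.341 for Cd3e and 0.394 for Cd79a. Summed hepatocyte markers were 60480 to 78810 against 46670 to 57750. Cholangiocyte markers were lower without overlap (30.01 to 39.05 against 39.17 to 65.42), whereas endothelial (344.4 to 389 against 302.1 to 367.7), stellate (389.5 to 580.6 against 388.5 to 472.8) and red cell sums (113.2 to 210.5 against 158.1 to 192.5) overlapped. The part of these cells in the differences was not tested. With the 3 mice left out, 5 members differed between refed and fed Y657X livers (Lcat and Soat2 higher, Lrp1, Abca1 and Npc1 lower, where 23.5% of all genes were called), and Abcg5 went from −0.77 to 0.44, no longer called.

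Among fasted mice the genotypes differed in 2 members, where 13.1% of all genes were called. Ggps1 was higher in Y657X livers by 0.44 (SE 0.12, adjusted p = 0.0131), with 5 of 6 Y657X mice above all 6 wild-type mice. Npc1 was lower by 0.32 (SE 0.10, adjusted p = 0.0322), at 143 to 186 CPM (median 165) against 164 to 255 (201). Both runs of mice gave the same direction for both genes, 0.31 and 0.56 for Ggps1 and −0.24 and −0.39 for Npc1, and with 3 mice a group neither run alone gave a call, where 5.50% and 0.540% of all genes were called. Without WT_918, WT_919, WT_920, MT_806, MT_826 or MT_827 Npc1 was not called, while Ggps1 was called without any single mouse.

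Most other members pointed down in fasted Y657X livers without passing. Of all 29, 27 had a negative log2 fold change, and the synthesis median was −0.38 against 0.00 over all genes tested. Nsdhl was 5.44 to 10.2 CPM (median 8.49) in Y657X and 10.4 to 15.5 (11.99) in wild-type livers, with a change of −0.65 (SE 0.47, adjusted p = 0.396). Sc5d was 131 to 204 (186) against a lowest wild-type value of 214 (median 234), with a change of −0.39 (SE 0.18, adjusted p = 0.163). These were the 2 members whose genotypes did not overlap, a pattern that 2.50% of all genes showed in that direction. When the spread was estimated from the fasted groups alone, 6 members were called, where 11.9% of 12943 genes were, with Acat2, Hmgcs1, Nsdhl, Hsd17b7 and Sc5d lower and Ggps1 higher, and Npc1 lost its call (adjusted p = 0.0653).

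After refeeding no member was called between genotypes. edgeR called 0 of 29, DESeq2 called 0, and 1 member had an unadjusted p under 0.05, while 4 of 13945 genes were called in all (0.0287%) and 1329 had an unadjusted p under 0.05. All 18 synthesis members had a negative value, from −0.36 to −0.04 with a median of −0.21, and these were small beside their spread, as for Hmgcs1 (−0.30, SE 0.43). The response to fasting differed between genotypes for none of the 29 members (4.35% of all genes), and the response to refeeding likewise for none (2.06%), both by edgeR and by DESeq2. Unadjusted p values under 0.05 were seen for Ggps1, Sc5d, Abcg1, Abcg5 and Abcg8 in the fasting response and for Ggps1 and Soat2 in the refeeding response. The nearest to the threshold were Ggps1 on refeeding (−0.53, SE 0.17, adjusted p = 0.103) and Sc5d on fasting (−0.69, SE 0.26, adjusted p = 0.121).

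Outside the members, 24 further genes of cholesterol handling and its control were examined, all of which were tested. Between fasted and fed mice 9 of them were called higher and 6 lower in wild-type and 7 higher and 6 lower in Y657X livers, against 14.5% and 17.5% of all genes in wild-type and 15.2% and 17.7% in Y657X mice. Between refed and fasted mice 7 were higher and 11 lower in wild-type livers and 7 and 7 in Y657X livers, against 16.5% and 13.7% of all genes and 17.1% and 14.2%. Insig1, which retains SREBP in the endoplasmic reticulum, changed in wild-type livers by −2.04 (SE 0.29) on fasting and 2.17 (SE 0.29) on refeeding. Insig2, a related retention protein, went the other way, by 1.25 (SE 0.16) and −2.06 (SE 0.17).

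Between fasted genotypes 3 of these 24 genes were called, beside 13.1% of all genes. Srebf1, which encodes SREBP-1, was 22.8 to 54.0 CPM (median 45.9) in fasted Y657X and 64.3 to 139 (78.0) in fasted wild-type livers, without overlap, a change of −1.07 (SE 0.19, adjusted p = 0.000374). Mylip, a ubiquitin ligase induced by LXR, was higher by 0.48 (SE 0.11), and Lipc, the hepatic lipase, was lower by 0.75 (SE 0.16). The fasting response itself differed between genotypes for Srebf1 (−1.24, SE 0.27, adjusted p = 0.00775) and so did its refeeding response (1.04, SE 0.27, adjusted p = 0.0356). Srebf2, encoding the factor named for sterol synthesis, differed between fasted genotypes by −0.31 (SE 0.15, adjusted p = 0.185). In fed mice 1 of the 24 was called, Lipa, a lysosomal lipase, higher in Y657X mice by 0.30 (SE 0.08), beside 2.37% of all genes. Without MT_866, MT_868 and MT_869, whose macrophage markers were high as given above, its value was 0.14 (SE 0.10, adjusted p = 0.848). In refed mice none of the 24 was called, with 3 at an unadjusted p under 0.05, beside 0.0287% of all genes.

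Averaged per mouse, as centred log2 CPM over the 18 synthesis members, fed wild-type mice lay between 0.49 and 0.75 and fasted wild-type mice between −1.24 and −0.86. Fasted Y657X mice ran from −1.67 to −0.90, of which MT_826 had the highest and the other 5 lay at −1.23 or below. Refed mice covered −0.05 to 1.85 in wild-type and −0.50 to 1.62 in Y657X livers. The same average over the 4 export genes ran from −0.64 to 0.17 in refed wild-type and −0.54 to 0.00 in refed Y657X mice, and from 0.66 to 0.93 in fed mice MT_866, MT_868 and MT_869. The 3 refed mice with the highest synthesis averages, WT_816, MT_814 and MT_817 at 1.85, 1.62 and 1.43, also had the 3 lowest export averages among refed mice, −0.64, −0.41 and −0.54. These averages are descriptions and carry no test, since the members were not chosen blind to the data.

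**Figure D5:**
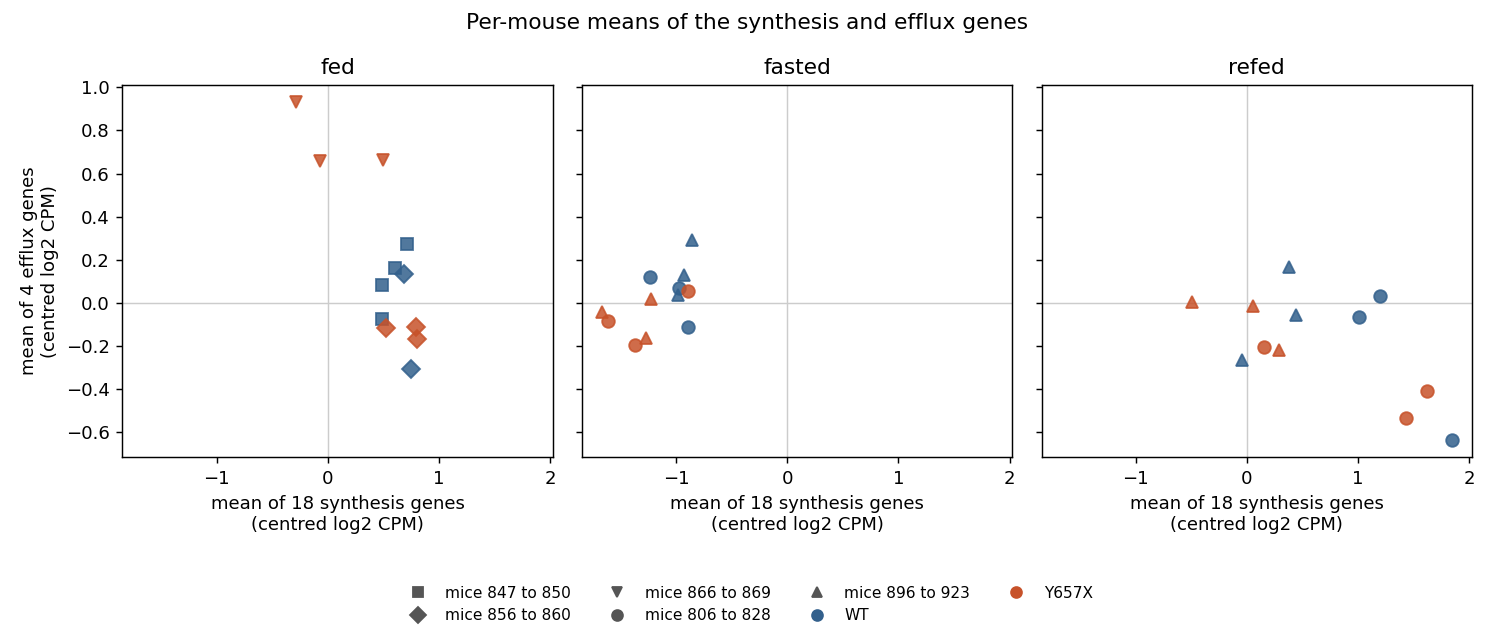
Per-mouse mean of centred log2 CPM over the 18 synthesis members (horizontal axes) against the mean over the 4 export genes (vertical axis), with a panel for each feeding state, a point for each of 36 mice, colours for genotype and symbols for the run of mouse numbers. Fasted livers sit together at −1.67 to −0.86 on the synthesis axis, fed mice MT_866, MT_868 and MT_869 stand apart at 0.66 to 0.93 on the export axis, and refed mice stretch along the synthesis axis up to 1.85.

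Some counts are shared with neighbouring transcripts. Fdps overlaps Gm43738 and Tm7sf2 overlaps Vps51 on the same strand. Antisense exons overlap Hmgcs1, Idi1, Ggps1, Fdft1, Lss, Cyp51 and Npc1, and Abcg5 and Abcg8 overlap each other. As the strand setting of the counting is not stated, reads of these pairs could be assigned to either gene, Ggps1 with Arid4b and Fdft1 with Ctsb among them.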

How the data were processed

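Total RNA of 36 livers was sequenced by the authors on an Illumina platform as single reads. The deposited values are estimated counts, not normalized by the authors, with 1 for each gene in each mouse. Submitters' processing notes name featureCounts, Cuffdiff, SAMtools and edgeR, and the build mm9. Yet the deposited loci overlapped GRCm38 genes for 36217 of 36341 matched identifiers, so coordinates are GRCm38 (GENCODE M21). Versions and the strand setting are not given in the sources used here. A second table of fitted group means by the authors, on a log2 scale, was not used. Of counts above 0, 3.64% were not whole; all were rounded. No row without a gene name entered the totals.

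Counts were analysed with edgeR 4.0.16 in R 4.3.3: filterByExpr (13945 genes), TMM, robust glmQLFit with 1 coefficient per group, two-sided glmQLFTest and Benjamini-Hochberg adjustment over all genes tested. "Called" means adjusted p under 0.05. The script was tested on simulated data. CPM values are TMM-scaled. Per-mouse averages used log2 CPM with a prior count of 2. Each group of 6 mice comprised separate animals; the common dispersion corresponded to a biological CV of 0.181. Alternatives were DESeq2 1.42.0, its size factors, library size alone, the likelihood ratio test, no filter, single-comparison fits, a mouse-number covariate and leaving out each mouse. The members and gene lists were chosen with earlier results of these data known. Fits by run of mouse numbers and those without MT_866, MT_868 and MT_869 were added after seeing the data. Every member belonged to a role group and could be named, with values for those called or singled out for lack of a call. Some genes of the wider pathway are not reported here.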

Additional observations from a re-analysis of the deposited data

Results flagged for a closer look

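In 7 of 174 pairs of a member and a group, 1 mouse lay far from the other 5 by Dixon's criterion, which chance alone gives in about 1 of 20. WT_825 was lowest among fasted wild-type mice for Mvk (4.30 CPM) and for Idi1 (24.6 CPM). WT_860 was highest in fed wild-type mice for Pmvk (59.7 CPM), and WT_856 of that group was lowest for Abcg8 (44.1 CPM). In fasted Y657X mice, MT_826 was highest for Lss (26.1 CPM) and MT_827 lowest for Abcg8 (55.3 CPM). MT_868, one of the 3 fed Y657X mice that stood apart, was lowest for Tm7sf2 (60.4 CPM).

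For 4 effects, every mouse of one group lay on one side of its control mean and every mouse of the other on the opposite side, with the following gap between the mean effects on the log2 scale. The genotype effect on Ggps1 differed by 0.52 between fasted and refed mice, and that on Sc5d by 0.72 between fed and fasted mice. The fasting response of Abcg5 differed by 0.70 and that of Abcg8 by 0.78 between genotypes. This pattern of sides is not itself a test. The corresponding interaction terms did not pass (adjusted p = 0.103 for Ggps1, 0.121 for Sc5d, 0.165 for Abcg5 and 0.133 for Abcg8, edgeR). Without MT_866, MT_868 and MT_869 the Y657X fasting changes were 0.68 for Abcg5 and 0.45 for Abcg8, against 0.44 and 0.47 in wild-type mice. The genotype differences were then 0.23 and −0.02. Those mice were picked after their values had been seen, so these figures carry no test.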

How the results depend on the processing

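The members called between fed genotypes, 1 in the report, numbered 4 by DESeq2 (Abca1, Lrp1 and Scarb1 lower, Abcg5 higher), 2 by the likelihood ratio test, 2 with library size alone (Abcg1 and Abcg5, both higher), and 0 without the filter, in a fit of only those groups, with mouse-number runs as a covariate, or without MT_866, MT_868 and MT_869. Of all genes, 2.37% were called in the report's fit, 4.62% by DESeq2, 3.70% by the likelihood ratio test, 5.42% with library size alone, 0.819% without the filter, 0.231% in the fit of only those groups, and none with the covariate or without the 3 mice. Leaving out single mice gave 0 to 4 calls, with none without WT_847, WT_849, WT_850, MT_866, MT_868 or MT_869, and 4 without MT_857 or MT_858. Scaling by library size alone moved the median of all genes in this comparison by 0.11. Abcg5 turned to −0.28 with the covariate and to −0.35 without MT_866, MT_868 and MT_869. With the covariate the fed genotypes were in effect compared between 2 wild-type and 3 Y657X mice, the ones whose numbers overlapped. Between fasted genotypes the 2 calls became 1 with library size alone (1679 of 13945 genes), 6 in a fit of only those groups (11.9% of genes), and 0 in the lower or in the higher run alone (5.50% and 0.540%), and ranged from 1 to 3 without single mice. For refed against fed mice, the 7 wild-type calls became 11 with the higher run (17.7% of all genes) and 5 to 9 without single mice. The 12 Y657X calls became 6 in a fit of only those groups (20.3%), 5 without MT_866, MT_868 and MT_869 (23.5%, Abcg5 turning to 0.44) and 8 to 16 without single mice. Hsd17b7, not called between refed and fasted wild-type mice, turned to −0.027 with the higher run. Sc5d was the 1 call for a genotype difference of the fasting response in a fit of fewer groups (490 of 13599 genes). Calls for fasted against fed stayed at 18 to 19 in wild-type and 19 to 21 in Y657X mice, and those for refed against fasted at 18 to 19 and 18 to 20, without single mice; genotype differences after refeeding and of the responses stayed at 0. In fits of only the groups compared, fasted against fed gave 4 members higher and 19 lower in wild-type mice (36.2% of all genes called). The same fits gave 2 higher and 17 lower in Y657X mice (26.6%). The cause of these shifts was not tested. No paired analysis was possible because each mouse carries a number of its own. Depth limits low members most, as Mvd and Sqle in fasted mice.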
